A study of Mus musculus with 6 samples.

Results

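The fatty acid elongases and desaturases of mouse liver were examined on Agilent microarrays of mice fed a regular or a soy-enriched chow. The set consisted of 10 genes, namely Elovl1, Elovl2, Elovl3, Elovl5, Elovl6, Fads1, Fads2, Fads3, Scd1 and Scd2, and a probe was taken as a member when its RefSeq accession belonged to one of these genes. This gave 14 probes of the 56605 on the array, and 10 of the 22911 genes that could be named. Elovl1, Elovl5, Fads1 and Fads2 each had 2 probes, and the other genes had 1. All 14 probes were well above background on all 6 arrays, and none was saturated on any array.

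Both groups were male mice, 12 weeks old per the study's methods, and no genetic modification is named in the sources used here, nor is the strain. The 3 control mice received regular chow as 100% of their food, and the 3 soy-fed mice a mixture of 75% regular chow and 25% soy bean, both for 4 weeks, after which a piece of the right liver lobe was taken from each mouse. The soy bean is a source of polyunsaturated fat, chiefly linoleic acid with some alpha-linolenic acid, and which of its components acted on a gene cannot be told apart in this design, since the whole chow differed. Each mouse gave 1 array of 1 colour, so p-values measure the spread between mice, and the 3 arrays per group limit the precision of every value. The controls had 37010, 36366 and 38163 spots well above background and the soy-fed mice 31308, 31988 and 32498, all below the lowest control, and the part of this in the results was not tested. Control 1, control 2 and soy 1 shared slide 1, control 3 and soy 3 shared slide 3, and soy 2 was alone on slide 2. The tissue label was checked against 6 hepatocyte markers, which were well above background on all 6 arrays with a median difference of -0.10 (log2, soy minus control) and 0 of them past the test. At an unadjusted p under 0.05, 2 of these 6 differed, both lower in soy as several members were: Cps1 of the urea cycle by -0.47 (limma adjusted p = 0.178) without overlap, and Tat, tyrosine aminotransferase, by -0.76 (limma adjusted p = 0.324) with overlap. Of the genes well above background on all 6 arrays, 9.28% reached that unadjusted p with a lower value in soy. Without control 3 Tat passed, with -1.08 (limma adjusted p = 0.0499). Whole liver was measured, so that fewer cells of a type and less RNA per cell cannot be told apart.

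Elongases of the Elovl family catalyse the first and rate-limiting step by which the endoplasmic reticulum lengthens fatty acids with carbon from malonyl-CoA, and each prefers other chain lengths. Desaturases introduce double bonds: the Scd enzymes at the delta-9 position of saturated chains, Fads2 and Fads1 at the delta-6 and delta-5 positions of dietary polyunsaturated fatty acids. In the liver, several of these genes are activated by SREBP-1c, LXR and PPAR-alpha, and dietary polyunsaturated fat is known for lowering the transcripts of desaturases and lipogenic genes.

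Probe signals were background corrected, quantile normalized and put on a log2 scale, and each difference is the soy mean minus the control mean. The test was limma with p-values adjusted over all probes, and to pass, a probe needed an adjusted p below 0.05 together with a fold change of over 1.5 or below 0.66. It was passed by 0.350% of all probes and by 0.673% of the genes detected on all 6 arrays, each taken by its brightest probe. By limma, 0 of the 10 member genes passed. At an unadjusted p under 0.05, 5 of the 10 genes differed, Elovl5, Elovl6, Fads2, Fads1 and Elovl2, each by its brightest probe and each lower in soy. Among the genes detected on all 6 arrays, 20.1% reached that p in either direction and 9.28% did so with a lower value in soy. For the same 5 members every soy value lay below every control value, and for 0 members every soy value lay above. Such a lack of overlap occurred in 25.6% of the genes detected on all 6 arrays, 12.2% lower and 13.3% higher in soy. The median difference over the 10 members was -0.37, with 7 lower and 3 higher, beside -0.0051 over the genes detected on all 6 arrays.

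**Figure D1:**
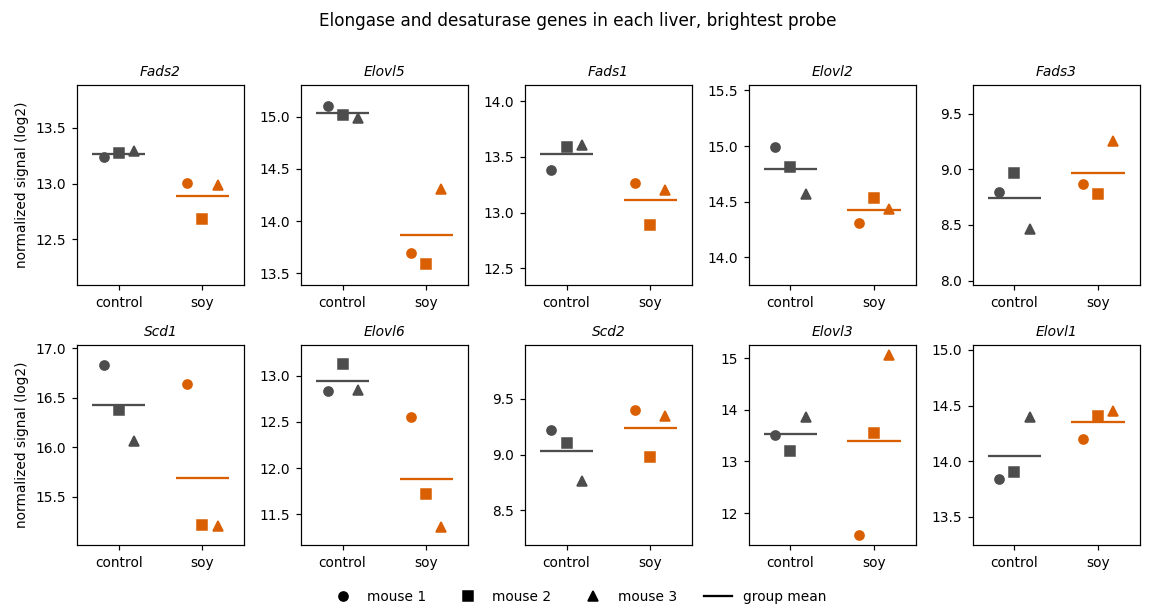
Normalized signal (log2) of the brightest probe of the 10 genes on the 3 control and the 3 soy arrays, where a dot, a square and a triangle mark mice 1, 2 and 3 and a bar marks the group mean. The groups separate for Elovl5, Elovl6, Fads2, Fads1 and Elovl2, whereas the soy values of Elovl3 span 3.47 and enclose those of the controls.

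Elovl5, which lengthens the polyunsaturated products of Fads2, showed the largest difference of the set. Its brightest probe (NM_134255) gave 15.11, 15.02 and 14.99 (log2) on control arrays 1, 2 and 3 and 13.70, 13.59 and 14.31 on soy arrays 1, 2 and 3. The groups did not overlap, and the soy 3 liver was nearest to the controls. The group means were 15.04 ± 0.061 and 13.86 ± 0.39 (SD, n = 3), a difference of -1.17 (SE 0.19, 95% interval -1.61 to -0.74), or 2.26-fold lower in soy, with a limma adjusted p of 0.0593. A second, much dimmer probe (XM_011242807) gave 8.07, 8.30 and 8.34 in control and 7.71, 7.34 and 7.75 in soy livers. There the groups did not overlap either, and the difference was -0.64 (SE 0.14, limma adjusted p = 0.137). The adjusted p of the brightest probe lay close to the threshold: it was 0.0252 without soy 3, 0.0479 after a 75th-percentile shift in place of quantile normalization, and 0.182 with the slide as a block. Within slides the difference was -1.37 on slide 1 and -0.68 on slide 3.

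The promoter of Elovl5 is shown because this gene had the largest difference, and that of Elovl6 because it came next. Both are RefSeq sequences of build GRCm38.p6 and run for 250 bases up to the base before the transcription start, on the plus strand at chr9:77917115-77917364 for Elovl5 and chr3:129532136-129532385 for Elovl6. Capitals mark an E-box (CACGTG) or a CCAAT box, which reads ATTGG when it lies on the minus strand.
Elovl5: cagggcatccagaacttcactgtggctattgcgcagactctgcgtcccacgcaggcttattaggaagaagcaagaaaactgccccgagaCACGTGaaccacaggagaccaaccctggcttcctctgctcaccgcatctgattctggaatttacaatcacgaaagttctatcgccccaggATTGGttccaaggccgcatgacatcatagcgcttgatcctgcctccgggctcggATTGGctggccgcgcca
Elovl6: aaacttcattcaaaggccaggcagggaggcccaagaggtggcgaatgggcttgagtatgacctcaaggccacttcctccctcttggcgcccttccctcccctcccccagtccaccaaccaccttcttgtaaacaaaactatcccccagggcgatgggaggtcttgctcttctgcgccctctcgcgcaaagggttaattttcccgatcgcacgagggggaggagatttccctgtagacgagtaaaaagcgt
Elovl5 carried 1 E-box, starting at position -161 from the transcription start, and 2 CCAAT boxes on the minus strand, starting at -71 and -17. Elovl6 carried none of the 4 motifs searched on both strands, which were the sterol regulatory element TCACNCCAC (N for any base), the E-box, the CCAAT box and DR1, a pair of AGGTCA copies 1 base apart. No motif overlapped another in the Elovl5 window. The search covered the printed bases and the 50 bases that follow them. Of 32851 RefSeq promoter windows of the same 300 bases, 1.24% held the sterol regulatory element, 7.15% an E-box, 37.4% a CCAAT box and 0.0396% DR1. Windows were matched for 6 of the 10 members, and those of Fads2 and Elovl2 held none of the 4 motifs either. CCAAT boxes also occurred in members that were higher in soy, 1 in a window of Elovl1 at -35 and 2 in that of Fads3 at -106 and -78. A match is a run of letters in this window and was not tested as a binding site.

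The other enzymes of the polyunsaturated chain were lower by smaller amounts. Fads2, the delta-6 desaturase that takes the first step on linoleic and alpha-linolenic acid, gave 13.24, 13.28 and 13.29 (log2, NM_019699) in control and 13.00, 12.69 and 12.99 in soy livers. Its control values lay within a narrow band above all soy values, and the difference was -0.38 (SE 0.12, 95% interval -0.64 to -0.11, limma adjusted p = 0.270), or 1.30-fold lower. Its dimmer probe gave 10.15, 10.29 and 10.36 against 9.85, 9.74 and 9.67, again without overlap, and a difference of -0.51 (SE 0.11, limma adjusted p = 0.114).

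Fads1, the delta-5 desaturase that forms arachidonic and eicosapentaenoic acid, gave 13.38, 13.59 and 13.61 (NM_146094) in control and 13.26, 12.89 and 13.20 in soy livers. The groups were separated by 0.12, between control 1 and soy 1, and the difference was -0.41 (SE 0.13, 95% interval -0.72 to -0.10, limma adjusted p = 0.295). The dimmer Fads1 probe gave 8.40, 8.32 and 8.29 against 7.97, 8.16 and 8.51. On that probe soy 3 was above all controls, the groups overlapped, and the difference was -0.12 (SE 0.15, limma adjusted p = 0.795), or -0.0015 without soy 1 and -0.27 without soy 3, so that the lack of overlap held for 1 of the 2 Fads1 probes.

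Elovl2, which lengthens the longer polyunsaturated chains on the way to docosahexaenoic acid, gave 14.99, 14.82 and 14.57 (NM_019423) in control and 14.31, 14.53 and 14.44 in soy livers. The lowest control and the highest soy value were only 0.041 apart. The difference was -0.37 (SE 0.13, 95% interval -0.68 to -0.059, limma adjusted p = 0.348). Within slides 1 and 3 the differences of the brightest probes were -0.25 and -0.30 for Fads2, -0.22 and -0.41 for Fads1 and -0.60 and -0.14 for Elovl2, all in the direction of the pooled value. The dimmer Fads1 probe gave -0.39 and 0.22, the latter against its pooled direction.

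**Figure D2:**
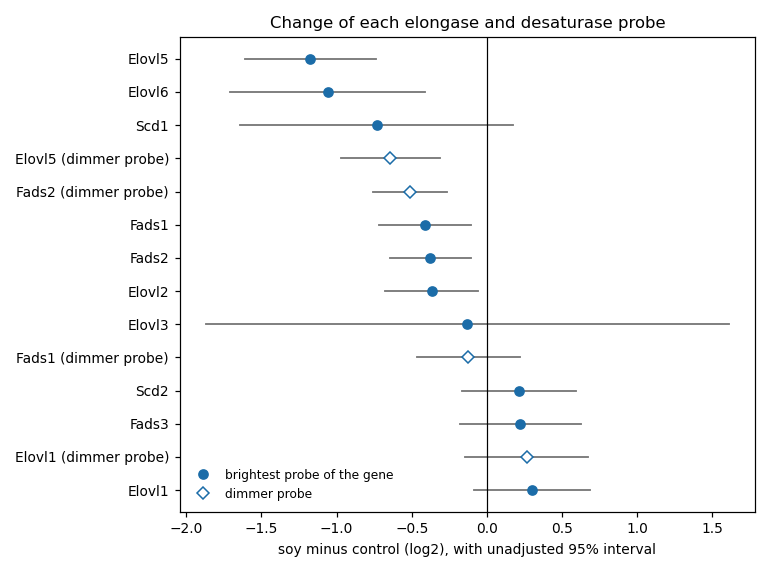
Difference between soy and control livers (log2, soy minus control) for the 14 probes of the 10 genes, where a circle is the brightest probe of a gene, a diamond its dimmer probe and the line the unadjusted 95% interval. The intervals of the brightest Elovl5, Elovl6, Fads1, Fads2 and Elovl2 probes lie below 0, and that of Elovl3 runs from -1.87 to 1.61.

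Elovl6 and Scd1, which act on palmitate and its product stearate, were lower on average but varied more between the soy-fed mice. Elovl6, which lengthens palmitate to stearate, gave 12.84, 13.13 and 12.85 (NM_130450) in control and 12.56, 11.72 and 11.36 in soy livers. The soy 1 liver was 0.28 below the lowest control and the other two soy livers were well below it. The means were 12.94 ± 0.17 and 11.88 ± 0.61 (SD, n = 3), a difference of -1.06 (SE 0.28, 95% interval -1.71 to -0.41) or 2.08-fold, with a limma adjusted p of 0.195. Without soy 1 the difference was -1.40 (limma adjusted p = 0.0620), and within slides it was -0.43 on slide 1 and -1.48 on slide 3.

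Scd1, the main delta-9 desaturase of the liver, which turns stearate into oleate, gave 16.83, 16.38 and 16.06 (NM_009127) in control and 16.64, 15.22 and 15.21 in soy livers. The soy 1 value lay inside the control range and the other two soy values lay below it. The means were 16.42 ± 0.39 and 15.69 ± 0.82 (SD, n = 3), and the difference of -0.73 (SE 0.39, 95% interval -1.64 to 0.18, limma adjusted p = 0.534) was smaller than the SD among the soy livers. It was 0.036 within slide 1, -0.85 within slide 3 and -1.21 without soy 1 (limma adjusted p = 0.142).

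Scd2, the isoform best known from brain, adipose tissue and the neonatal liver, gave 9.22, 9.10 and 8.76 (NM_009128) in control and 9.41, 8.98 and 9.34 in soy livers. The groups overlapped, with a difference of 0.21 (SE 0.16, 95% interval -0.17 to 0.59, limma adjusted p = 0.670). It ranged from 0.081 without control 3 to 0.35 without soy 2, and was 0.24 within slide 1, 0.58 within slide 3 and 0.39 with the slide as a block. The Scd genes are close paralogs, and cross-hybridization between them was not tested.

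Other lipogenic genes are given beside Scd1 mouse by mouse. Scd3, a further delta-9 desaturase, gave 10.87, 10.74 and 10.42 in control and 10.75, 9.11 and 9.34 in soy livers, with soy 1 among the controls as for Scd1 and a difference of -0.94 (SE 0.39, limma adjusted p = 0.421), or -1.45 without soy 1 (limma adjusted p = 0.0620). Of its 3 dimmer probes, the one well above background on all 6 arrays differed by 0.00044, and the others, well above background on 1 and 0 arrays, by -0.53 and -0.090. Thrsp, a protein that promotes lipogenesis, gave 16.58 and 16.25 on control arrays 2 and 3 and 15.97, 14.63 and 14.36 in soy livers, with the control 1 spot left out as an outlier, and a difference of -1.43 (limma adjusted p = 0.306) over 5 arrays. The dimmer Thrsp probe, measured on all 6, gave 14.52, 15.61 and 15.53 against 15.01, 13.47 and 13.21, with overlap through soy 1 and a difference of -1.33 (limma adjusted p = 0.359). Fasn, the synthase that makes palmitate, gave 15.67, 15.85 and 15.11 in control and 15.75, 15.15 and 15.19 in soy livers. Its groups overlapped throughout, with a difference of -0.18 (limma adjusted p = 0.816). Acly gave 15.21, 15.06 and 14.56 in control and 14.23, 14.57 and 14.54 in soy livers, lowest in soy 1. Its difference was -0.50 (limma adjusted p = 0.364). Acaca gave 13.55, 13.46 and 13.1346 in control and 13.1337, 12.76 and 12.90 in soy livers, without overlap. It differed by -0.45 (limma adjusted p = 0.304). Acacb, given below, was also lowest in soy 1 (11.94). Srebf1, which encodes SREBP-1, gave 13.90, 14.50 and 13.38 in control and 15.20, 14.09 and 14.51 in soy livers, highest in soy 1, with a difference of 0.68 (limma adjusted p = 0.512), or 0.38 without soy 1 and 0.40 without control 3. Of 6 adipocyte markers, Cfd, which encodes adipsin, was also highest in soy 1, at 8.20 against 6.33 and 6.34 in the other soy livers and 6.28, 6.26 and 7.10 in control, and its dimmer probe gave 7.75 in soy 1 against 6.40 and 6.22. Adipoq and Plin1 were not well above background on any array, soy 1 included, and Fabp4 had its lowest value, 10.45, in soy 1. The summed signal of the 6 markers, to which Fabp4 gave the brightest probe, relative to the control mean, was 1.08, 0.93 and 0.99 in control and 0.84, 0.94 and 0.91 in soy livers, and the part of adipocytes in the values of soy 1 was not tested.

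**Figure D3:**
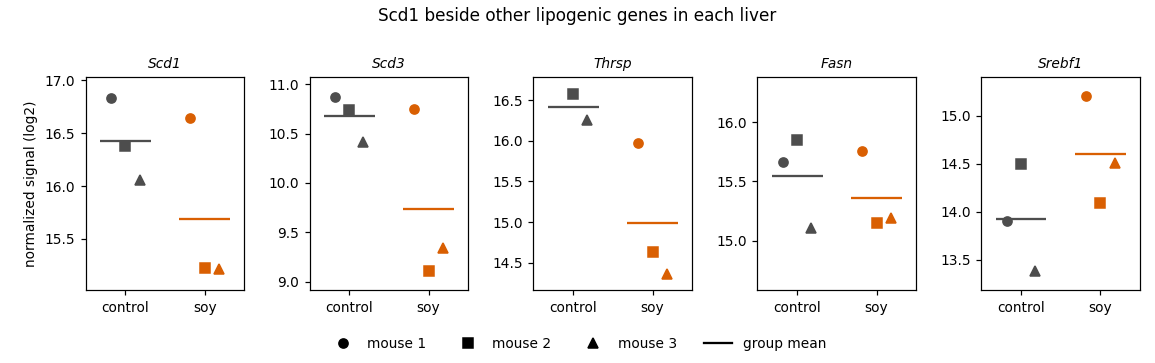
Normalized signal (log2) of Scd1, Scd3, Thrsp, Fasn and Srebf1 on the 6 arrays, 1 point per mouse, with the control 1 spot of Thrsp absent as an outlier. Acly, Acaca and Acacb are not drawn. The soy 1 liver lies within or near the control range for Scd1, Scd3 and Thrsp, where the other two soy livers are lower, and has the highest Srebf1 value of the 6, 15.20.

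Elovl1 and Fads3 were the members other than Scd2 that were higher in soy. Elovl1, which makes saturated and monounsaturated very long chains, gave 13.84, 13.90 and 14.40 (NM_001039176) in control and 14.20, 14.41 and 14.45 in soy livers. Control 3 lay among the soy livers, so the groups overlapped, and the difference was 0.30 (SE 0.17, 95% interval -0.083 to 0.69, limma adjusted p = 0.546). The dimmer Elovl1 probe gave 10.28, 10.28 and 10.91 against 10.73, 10.78 and 10.77, with the same high control 3 and a difference of 0.27 (limma adjusted p = 0.621). That difference was 0.16 without control 2 and 0.47 without control 3.

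Fads3, which introduces a double bond into sphingoid bases, gave 8.79, 8.97 and 8.47 (NM_021890) in control and 8.87, 8.78 and 9.25 in soy livers. The groups overlapped, with a difference of 0.22 (SE 0.17, 95% interval -0.18 to 0.63, limma adjusted p = 0.671), and 0.082 without soy 3 or 0.087 without control 3. Within slides 1 and 3 the difference was -0.013 and 0.78 for Fads3, and 0.32 and 0.047 for the brightest Elovl1 probe.

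Elovl3, which lengthens saturated and monounsaturated chains and is known in the liver as a rhythmic and male-biased gene, differed most between mice. It gave 13.51, 13.20 and 13.86 (NM_007703) in control and 11.58, 13.56 and 15.05 in soy livers. The soy livers held both the lowest and the highest value, with soy 2 among the controls. The soy range was 3.47 and the control range 0.67, and the means of 13.52 ± 0.33 and 13.40 ± 1.74 (SD, n = 3) differed by -0.13 (SE 0.75, 95% interval -1.87 to 1.61, limma adjusted p = 0.964). That interval allows a difference of either sign that is larger than the one measured for any other member. Without soy 1 the difference was 0.78, and it was -1.78 within slide 1 and 1.19 within slide 3.

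Values of clock genes are given beside Elovl3. Of the clock genes that peak in the morning, 6 of 6 were above control in the soy livers (median difference 0.70), and of those that peak in the evening 10 of 10 were below it (median -0.70), while 0 of either list passed the test. At an unadjusted p under 0.05 the counts were 4 of 6 and 6 of 10, and Npas2 (0.14, well above background on 0 arrays) and Hlf (-0.0044) are among the genes counted as higher and lower. That p was reached by 20.1% (2709) of 13498 genes well above background on all 6 arrays, and by 9.28% (1252) with a lower value in soy. Of the clock genes, 5 of the 6 and 8 of the 10 were well above background on all 6 arrays. The 6 of 10 included Bhlhe41, well above background on 2 control and 0 soy arrays, and Ciart, on 3 control and 2 soy arrays. Arntl, the activator of the clock whose transcript peaks around the end of the night, gave 7.61, 7.42 and 8.66 in control and 8.88, 9.48 and 10.71 in soy livers on its brightest probe, without overlap, a difference of 1.79 (limma adjusted p = 0.210). Its dimmer probes overlapped, with differences of 0.72 (limma adjusted p = 0.407) and -0.0035 (limma adjusted p = 0.999). Dbp, a clock output factor with an evening peak, gave 15.86, 15.98 and 14.87 in control and 14.28, 13.87 and 10.77 in soy livers, also without overlap, a difference of -2.59 (limma adjusted p = 0.300), or -1.49 without soy 3. Within each diet the mice had the same order for Elovl3 as on the brightest Arntl probe and on the dimmer one with -0.0035. That dimmer probe gave 7.96, 6.72 and 8.52 in control and 7.16, 7.71 and 8.32 in soy livers. It was well above background on 2 of 3 control arrays. On the dimmer Arntl probe with 0.72, control 1 was the lowest control (6.82, 6.90 and 7.39), where control 2 was for Elovl3. Arntl and Dbp were set beside Elovl3 after their values had been seen. The part of the clock in the values of Elovl3, or of any other member, was not tested. Of 7 male-biased liver genes 0 passed, with a median difference of -0.00018.

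**Figure D4:**
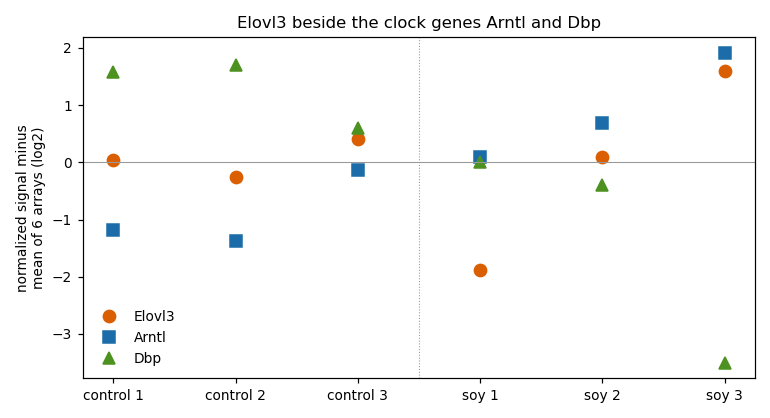
Elovl3, Arntl and Dbp on the 6 arrays, each by its brightest probe as log2 signal minus the mean of its 6 arrays. The soy 3 liver has the highest Elovl3 and Arntl and the lowest Dbp of the 6, and soy 1 has the lowest Elovl3.

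The genes whose values across the 6 arrays were most like those of a member were sought for the members with the largest difference in each direction, Elovl5 and Elovl1, by the root mean square difference of mean-centred log2 values over 13497 genes. For Elovl5 they were Ulk1, a kinase that starts autophagy, at 0.16, Il1r1, the interleukin-1 receptor, at 0.19, and Creb3l2, a transcription factor anchored in the endoplasmic reticulum, at 0.22. Their differences were -1.12 (limma adjusted p = 0.0427), -1.32 (0.0805) and -0.91 (0.0473). Since these genes were chosen by their likeness to Elovl5, a lower value in soy was fixed by the choice. For Elovl1 they were Ecpas, Gm11423 and Ddx28, at 0.041, 0.046 and 0.048. Likeness over 6 arrays is a description of these mice.

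Around the members, 7 other elongases and desaturases were measured, 5 of them well above background on all 6 arrays, and 0 passed. The median difference of 0.013 is that of Elovl4, which was well above background on 0 arrays. Besides Scd3, which was lower, Scd4 gave 13.32, 12.37 and 12.84 in control and 13.17, 13.23 and 13.05 in soy livers, a difference of 0.31 (limma adjusted p = 0.647) that was 0.074 without control 2 and 0.55 without control 1. Of 9 partners that complete the elongation cycle or pass electrons to the desaturases, 8 were higher in soy and 0 passed, with a median of 0.22. Cyb5b, the cytochrome b5 of the mitochondrial outer membrane, gave 12.18, 12.43 and 12.43 in control and 12.77, 12.94 and 12.90 in soy livers. Its groups did not overlap, and the difference was 0.52 (SE 0.11, limma adjusted p = 0.124). Cyb5r3, the reductase that feeds cytochrome b5, was the only one of the 9 that was lower, by 0.12 (limma adjusted p = 0.740), and its difference ranged from -0.20 without control 3 to -0.044 without control 1.

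Of 9 genes that supply acetyl-CoA, malonyl-CoA and palmitate, 6 were lower and 3 higher by their brightest probe, with a median of -0.45. On at least 1 probe 2 passed, both lower in soy, and by the brightest probe 1 did. Of the 22911 genes that could be named, 122 passed on at least 1 probe. Acacb, the acetyl-CoA carboxylase at the mitochondrion, whose malonyl-CoA restrains fatty acid oxidation, gave 13.37, 12.97 and 12.93 in control and 11.94, 12.14 and 12.12 in soy livers. The groups did not overlap, and Acacb fell by 1.03 on the log2 scale (SE 0.14, limma adjusted p = 0.0405), while its dimmer probe differed by -0.084. Acss2, which makes cytosolic acetyl-CoA from acetate, passed on its dimmer probe with -1.39 (SE 0.16, limma adjusted p = 0.0235) and differed by -1.36 (limma adjusted p = 0.109) on the brightest. When 1 array was left out, Acacb passed in 0 of 6 fits (limma adjusted p 0.0589 to 0.131), and Acss2 in 1, without control 3 (0.0239), with 0.0561 to 0.106 in the rest. Me1, the malic enzyme that supplies NADPH, gave 13.89, 13.51 and 13.58 in control and 14.23, 14.16 and 14.60 in soy livers, a difference of 0.67 (limma adjusted p = 0.153) in the opposite direction.

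Of 13 regulators of these genes 0 passed, with a median of -0.064. Scap, the escort that carries SREBP to the Golgi, gave 14.88, 14.68 and 14.50 in control and 14.18, 14.39 and 14.30 in soy livers, without overlap, and differed by -0.39 (limma adjusted p = 0.292). Of 8 genes of acyl-CoA synthesis and phospholipid acylation 0 passed, with a median of 0.059. There 3 acyl-CoA synthetases did not overlap by their brightest probe, Acsl1 with a difference of 0.76 (limma adjusted p = 0.278), Acsl3 with 0.64 (limma adjusted p = 0.151) and Acsl5 with -0.47 (limma adjusted p = 0.195). Acsl1 ranged from 0.50 without control 2 to 1.02 without control 3. The lysophospholipid acyltransferase Lpcat3 did not overlap either, with 0.34 (limma adjusted p = 0.421) on its brightest and 0.50 (limma adjusted p = 0.241) on its dimmer probe. By their brightest probes 4 of these 8 genes did not overlap, beside 25.6% of the genes well above background on all 6 arrays. The dimmer probes of Acsl1 and Acsl3 overlapped, with 1.09 (limma adjusted p = 0.350) and 0.42 (limma adjusted p = 0.511).

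Of 9 genes of peroxisomal chain shortening, the route by which the peroxisome trims very long chains and completes docosahexaenoic acid, 9 were higher in soy by their brightest probe, with a median of 0.23. On at least 1 probe 2 passed, and by the brightest probe 1 did. Acaa1b, a peroxisomal thiolase, gave 15.51, 15.22 and 15.61 in control and 16.57, 16.60 and 16.56 in soy livers. The soy livers were alike and all above the controls, and Acaa1b rose by 1.13 (SE 0.12, limma adjusted p = 0.0191). Its near copy Acaa1a passed on the dimmer probe with 0.84 (limma adjusted p = 0.0469) and differed by 0.34 (limma adjusted p = 0.429) on the brightest. The 2 thiolases are similar enough in sequence that their probes may share signal, which was not tested. With 1 array left out, Acaa1b passed in 2 of 6 fits, without control 2 (limma adjusted p = 0.0469) and without control 3 (0.0310), with 0.0545 to 0.0956 in the rest, and Acaa1a passed in 0 of 6 (0.0689 to 0.152).

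**Figure D5:**
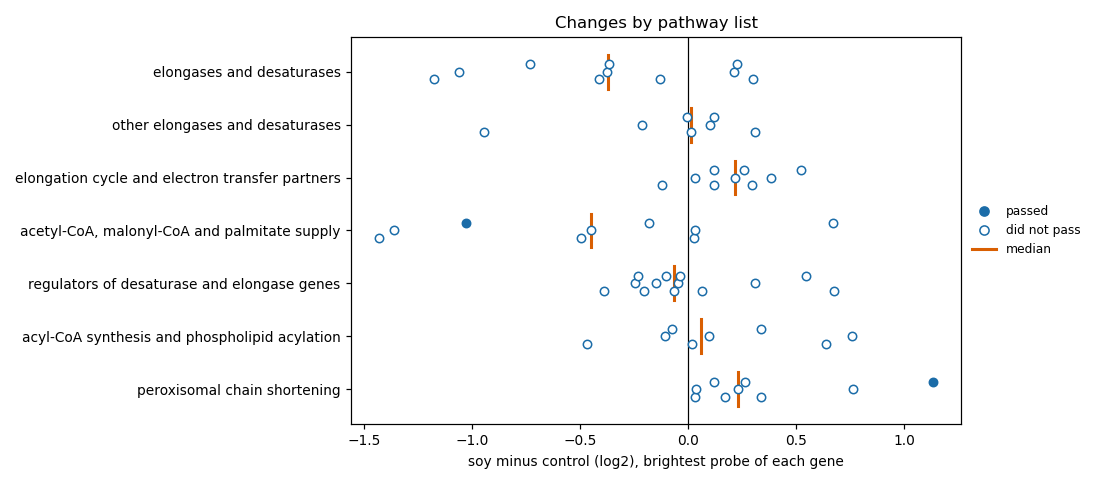
Difference between soy and control livers (log2, soy minus control) of the brightest probe of each gene in the member set and in the pathway lists around it (cell marker lists are not drawn), where a filled point passed the test and a bar is the list median. The median is -0.37 for the members, -0.45 for the supply genes and 0.23 for the peroxisomal genes, and filled points occur for Acacb and Acaa1b.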

How the data were processed

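Liver RNA of 3 control and 3 soy-fed mice was hybridized to 1-colour Agilent arrays. Per the file headers, the authors deposited Feature Extraction 11.5.1.1 output holding the median intensity per spot and the median background around it, unscaled between arrays and annotated on mm9. They also deposited quantile-normalized log2 values, used as an alternative, and marks for outlier and well-above-background spots. Here normexp (offset 50) corrected the background, control spots were dropped, arrays were quantile normalized, and outlier spots were left out. Soy was tested against control over 56605 probes with limma 3.58.1 (R 4.3.3) and the Benjamini-Hochberg method, and the fit was tested on simulated data. Gene names and promoters came from RefSeq tables of GRCm38.p6, which is not the array's build, and they gave 32994 probes a symbol. A gene is given by its brightest probe, and levels of different probes are not compared, except that marker sums add linear probe signals and so follow the brightest probes. Unless the brightest probe is named, a gene was counted as passed when at least 1 of its probes passed. Besides the members, 16 lists (119 genes) were described, and of each list the genes that passed and the largest difference in each direction, among genes detected throughout at least 1 group, were named. Fasn, Acly, Acaca, Cps1, Npas2, Bhlhe41, Ciart, Elovl4, Acsl3, Lpcat3, Ptprc, Hba-a1, Cfd, Adipoq and Plin1 were added after their values had been seen. Members, lists and rules were chosen with earlier results of these data known. The alternatives are given in the closing section. Python 3.11.15 and pandas 2.3.3 made the tables, matplotlib 3.10.9 the plots.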

Additional observations from a re-analysis of the deposited data

How the results depend on the processing

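The 198 probes that passed became 77 with an offset of 16, 13138 (11924 higher in soy, 1214 lower) with Agilent's processed signal (each array divided by its 75th percentile), 299 (202 higher, 97 lower) after a 75th-percentile shift, 497 with only probes well above background, 78 with the replicate number as a block and 25 with the slide as a block, and ranged from 25 to 203 with 1 array left out, while 118 were higher and 80 lower with the settings of the report. The processed signal moved the median of all probes to 0.13 and the shift also to 0.13, from -0.010, and to -0.0029 and 0.022 among probes detected on every array. The number of member genes that passed was 1, Elovl5, with the processed signal, the 75th-percentile shift, only probes well above background, and eBayes with trend and robust settings, and ranged from 0 to 1 with 1 array left out. For Elovl5 the adjusted p by limma was 0.00689, 0.0479, 0.0302 and 0.0416 in those settings, 0.0252 without soy 3, and 0.0593 to 0.182 in the others, and its difference stayed between -1.40 and -1.04 with 1 array left out. Its dimmer probe passed with the processed signal alone (0.0119). The dimmer Fads2 probe reached an adjusted p of 0.0298 with the processed signal (-0.54) but not the fold limit, and no member besides Elovl5 passed in the settings tried.

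With 1 array left out Elovl3 ranged from -0.96 to 0.78, Scd1 from -1.21 to -0.49, Scd2 from 0.081 to 0.35, Fads3 from 0.082 to 0.34, Elovl1 from 0.20 to 0.48, Elovl6 from -1.40 to -0.80, Elovl2 from -0.48 to -0.27, Fads1 from -0.48 to -0.30 and Fads2 from -0.43 to -0.27, each by its brightest probe, and the dimmer Fads1 probe from -0.27 to -0.0015. Signs reversed for Elovl3 without control 3 (0.042), without soy 1 (0.78) and within slide 3 (1.19), for Scd1 within slide 1 (0.036), for Fads3 within slide 1 (-0.013), and, within slide 3, for the dimmer probes of Elovl1 (-0.14) and Fads1 (0.22). The cause was not tested. The replicate numbers were not taken as pairs of mice. Deviations from the group mean correlated at 0.12, -0.057 and 0.11 for numbers 1, 2 and 3 over 27282 probes. Between unlike numbers they correlated at -0.20 to 0.10. The arrays of number 1 shared a slide, as did those of number 3, so that a pairing cannot be told apart from the slide or excluded. The block on the replicate number left 78 probes and 0 members past the test. Slide 2 held 1 soy array, so soy 2 adds nothing to the fit with the slide as a block.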

Other observations

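Markers of other liver cells were measured beside the hepatocyte markers. The median difference (log2, soy minus control) was 0.24 for 6 Kupffer cell markers, -0.10 for 6 endothelial, -0.10 for 6 stellate, 0.12 for 5 cholangiocyte and -0.11 for 6 adipocyte markers, with 0 of each list past the test by limma and 0 of each at an unadjusted p under 0.05, each gene by its brightest probe. With each gene centred on the mean of its 6 arrays, the Kupffer median was -0.60, -0.029 and 0.20 in control. In soy livers it was -0.13, 0.067 and 0.48. The stellate median was 0.34, -0.026 and -0.069 in control and -0.12, -0.11 and -0.076 in soy livers. Control 1 was thus the lowest array for Kupffer and the highest for stellate markers, and both median differences depend on it. Among genes detected throughout at least 1 group, the largest differences in each direction were 0.45 (Cd5l) and -0.73 (Marco) for Kupffer, 0.30 (Kdr) and -0.67 (Lyve1) for endothelial, 0.0059 (Des) and -0.33 (Colec11) for stellate, and 0.15 (Spp1) and -0.16 (Sox9) for cholangiocyte markers. These differences moved when 1 array was left out, to -0.037 for Lyve1 without control 1, -0.20 for Marco without control 3, -0.12 for Colec11 without control 1, 0.20 for Cd5l without control 1, 0.21 for Kdr without control 1, 0.020 for Spp1 without soy 3, -0.050 for Sox9 without soy 2 and -0.13 for Des without soy 1. Des was well above background on 3 control and 0 soy arrays. Lyve1 gave 11.16, 9.23 and 9.32 in control against 9.49, 8.89 and 9.35 in soy livers, and Marco 11.03, 11.17 and 12.71 against 10.36, 11.19 and 11.15. A dimmer Sox9 probe differed in the opposite direction, by 0.35 without overlap (limma adjusted p = 0.412). For the hepatocyte markers they were 0.059 (Ttr, 0.0089 without soy 1 and 0.16 without soy 2) and -0.76 (Tat), and the dimmer Ttr probe differed by -0.39 (limma adjusted p = 0.287) without overlap. The adipocyte markers Fabp4 and Lep differed by -0.15 (0.066 without control 1) and -0.21 (-0.33 without control 1, -0.12 without control 3), and Cfd, detected on 1 control and 1 soy array, by 0.41. Summed marker signal, relative to the mean of the control arrays, was 0.66, 1.06 and 1.28 in control and 0.92, 1.11 and 1.42 in soy livers for the Kupffer markers, of which Cd5l had the brightest probe, and the groups overlapped. Of 6 leukocyte and red cell markers 5 were higher in soy, with a median difference of 0.27, and 2 had an unadjusted p under 0.05, Ms4a1 and the leukocyte antigen Ptprc (0.28 without overlap, but 0.026 with overlap on its dimmer probe), while Cd3e of T cells differed by -0.11 (-0.021 without control 1, -0.21 without soy 2), and by -0.38 without overlap on its dimmer probe (limma adjusted p = 0.344). In this list 1 gene passed, Ms4a1 of B cells, higher by 0.93 (limma adjusted p = 0.0394) from 2 of 3 control arrays well above background, and it passed in 0 of 6 fits with 1 array left out (0.0724 to 0.142). An unadjusted p under 0.05 was reached by 20.1% of the genes well above background on all 6 arrays. The summed signal of the list was 1.05, 0.83 and 1.12 in control and 0.85, 1.83 and 1.05 in soy livers. Its brightest probe was that of Hba-a1 of red cells, which gave 16.91, 18.04 and 17.23 in soy livers and 17.21, 16.88 and 17.32 in control. The part of these cells in the member values was not tested.

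Values of other genes that the naming rule selects are as follows. Hlf, of the same family as Dbp, differed by -0.0044, and Nfil3 by 0.36, or 0.0039 without soy 3, since it gave 12.07, 12.02 and 12.39 in control and 12.07, 12.25 and 13.23 in soy livers. Hlf ranged from -0.37 without soy 1 to 0.26 without control 2. Among male-biased genes, Selenbp2 differed by -0.49 (limma adjusted p = 0.134) and Cyp2d9 by 0.28 (limma adjusted p = 0.538), or 0.15 without soy 1 and 0.42 without soy 3. Scp2, the peroxisomal thiolase and sterol carrier, differed by 0.030, or -0.048 without control 2 and 0.12 without control 1.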
